A study of Mus musculus with 6 samples.

Results

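The calcium/calmodulin-dependent protein kinases (CaM kinases) of the hippocampus and the small proteins that inhibit them were compared between mice lacking inhibitor-1 and wild-type mice. The set was fixed by name and holds 10 genes: the 4 subunits of CaM kinase II (Camk2a, Camk2b, Camk2d and Camk2g), its 2 inhibitor proteins (Camk2n1 and Camk2n2), CaM kinase IV (Camk4), the 2 upstream CaM kinase kinases (Camkk1 and Camkk2) and the kinase-like vesicle protein Camkv. Every probe set that the platform annotation gives to exactly 1 of these symbols was taken, which gave 29 of the 45101 probe sets for 9 of the 10 genes. The annotation used here gives no probe set to Camkk1, so that gene was not analysed here. The whole annotation names 18194 genes.

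CaM kinase II is one of the most abundant proteins of the postsynaptic density. It assembles into rings of alpha (Camk2a) and beta (Camk2b) subunits in forebrain neurons, is switched on by calcium-bound calmodulin and stays partly active after it has phosphorylated its own regulatory segment. Protein phosphatase 1 removes that phosphate at the synapse. Inhibitor-1, the product of Ppp1r1a, blocks protein phosphatase 1 once protein kinase A has phosphorylated it, and is thereby placed upstream of CaM kinase II in models of long-term potentiation. These relations concern protein activity, whereas the arrays measured RNA.

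The series holds 6 arrays of total RNA of mouse hippocampus, 3 of inhibitor-1 knockout mice and 3 of wild-type mice. The labels give no strain, sex, age, targeting construct or statement that each array came from a separate animal, so a p-value here reflects how far these arrays scatter, whether for technical or other reasons. For limma p-values, that scatter is drawn in part from other probe sets of similar intensity. The values are probe set intensities on a linear scale. The knockout was visible in its own transcript: Ppp1r1a had intensities of 272, 249 and 347 in knockout and of 9061, 8370 and 10345 in wild type (log2 change -4.93, SE 0.18, limma adjusted p = 3.58e-07). Ppp1r1a lies on chromosome 15, which carries 0 of the 10 genes.

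Marker transcripts of the main hippocampal neurons were present in both groups. Wfs1 of CA1 pyramidal neurons had mean log2 values of 13.6 in knockout and 13.5 in wild type, and Prox1 of dentate granule neurons 10.8 in knockout and 10.7 in wild type. The summed intensity of the marker lists for CA1, CA3 and CA2, dentate and interneurons overlapped between the groups. Summed intensity of 7 oligodendrocyte markers was 298580 to 311916 in knockout and 321585 to 349237 in wild type, without overlap, though their mean log2 level overlapped. Of 8 choroid plexus markers, from tissue that borders the hippocampus, 7 had a log2 change above 0 (median 0.61), with a summed intensity of 220522 to 266553 in knockout and 198156 to 279082 in wild type. Most of that sum came from Ttr, the 1 marker with a change below 0 (log2 change -0.02). The mean log2 level of the 8 markers was 12.3 to 13.1 in knockout and 11.6 to 12.6 in wild type. Replicate 1 stood apart in both groups with the lowest median intensity, 542 in knockout and 574 in wild type, so the results are also given without it where it matters.

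Of the 29 probe sets, 25 passed the filter that left out the dimmest 40% of all probe sets, and 0 of these differed between the groups at a limma adjusted p under 0.05 (adjusted p from 0.988 to 0.998). Over all 26999 probe sets tested, 0.0111% passed that threshold. At an unadjusted p under 0.05, 5 of the 25 were lower and 0 higher in knockout, which is 20% of them, beside 2.21% of all probe sets lower, 2.17% higher and 4.38% in either direction. Of those 5, 4 belong to Camk2a and 1 to Camk4. Probe sets of 1 gene were read on the same arrays and are not independent measurements. The median log2 change of the 25 was 0.01, and that of all probe sets tested was 0.004. The 3 knockout and 3 wild-type values did not overlap for 5 of the 25 probe sets, 4 lower and 1 higher in knockout, which is again 20%, beside 4.91% of all probe sets lower, 4.97% higher and 9.89% in either direction.

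**Figure D1:**
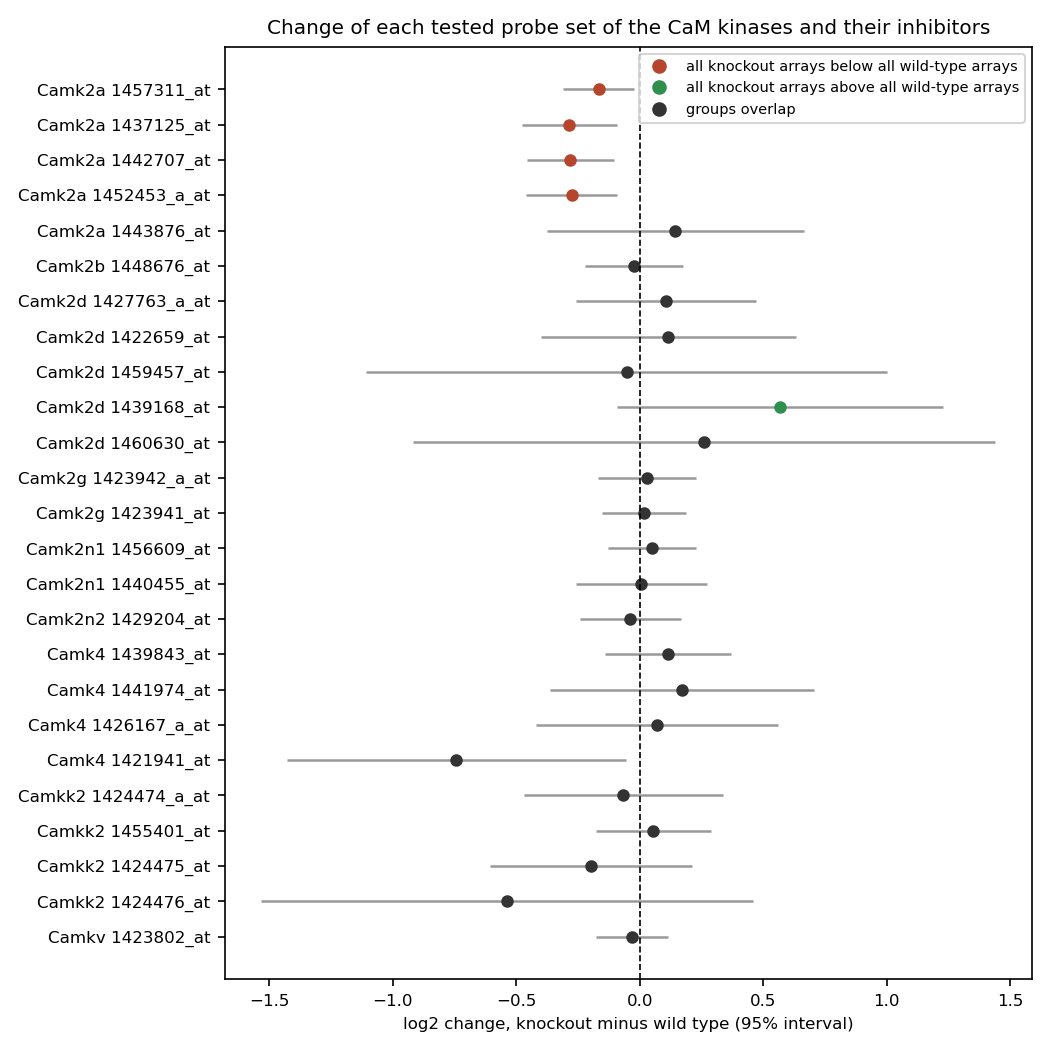
Log2 change (knockout minus wild type, horizontal axis) of the 25 tested probe sets of the CaM kinases and their inhibitors, one per row, with the 95% interval of the limma fit as a line. Colour shows whether the 3 knockout arrays all lie below (red) or above (green) the 3 wild-type arrays: 4 probe sets of Camk2a lie below, and 1 of Camk2d above.

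Camk2a, the alpha subunit of CaM kinase II and a marker of excitatory forebrain neurons, had lower values in knockout on 4 of its 5 tested probe sets. The changes of these 4, which are its brightest, were -10.9% to -17.9%, and on each of them every knockout array was below every wild-type array. None of the 4 passed the threshold after adjustment over all probe sets. The brightest, 1457311_at, had intensities of 98599, 92973 and 94516 in knockout and of 105413, 101473 and 114397 in wild type (log2 change -0.17, SE 0.07, 95% interval -0.31 to -0.02, limma adjusted p = 0.988). The gap between the lowest wild-type and the highest knockout array was small beside the range among wild-type arrays.

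Probe set 1437125_at of Camk2a had intensities of 34840, 30781 and 31075 in knockout and of 38783, 35332 and 43979 in wild type (log2 change -0.28, SE 0.09). Here knockout replicate 1 came close to wild type replicate 2. Probe set 1442707_at had intensities of 21013, 23456 and 19670 in knockout and of 27009, 26144 and 24619 in wild type, with a log2 change of -0.28 (SE 0.08) and the lowest unadjusted p of the family (limma unadjusted p = 0.00474, adjusted p = 0.988). By that p it ranked number 93 of the 26999 probe sets. Probe set 1452453_a_at had intensities of 12931, 12960 and 10973 in knockout and of 14813, 14713 and 14985 in wild type (log2 change -0.28, SE 0.08). Its wild-type arrays lay within a narrow band, and knockout replicate 3 was the lowest of the 6.

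The fifth tested probe set of Camk2a did not share this pattern. Probe set 1443876_at had intensities of 4348, 8567 and 6575 in knockout and of 4142, 6053 and 7244 in wild type, with a log2 change of 0.14 (95% interval -0.38 to 0.66). The groups overlapped and replicate 1 was the lowest array of each. A sixth, 1441734_at, was left out as dim, at 34.9 to 120 in knockout and 38.0 to 94.8 in wild type. The positions of these probe sets on the Camk2a transcripts were not used here. With the 5 tested probe sets averaged per array, the log2 change was -0.17 (95% interval -0.34 to -0.01, limma unadjusted p = 0.0411, adjusted p = 0.921) and the groups overlapped.

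**Figure D2:**
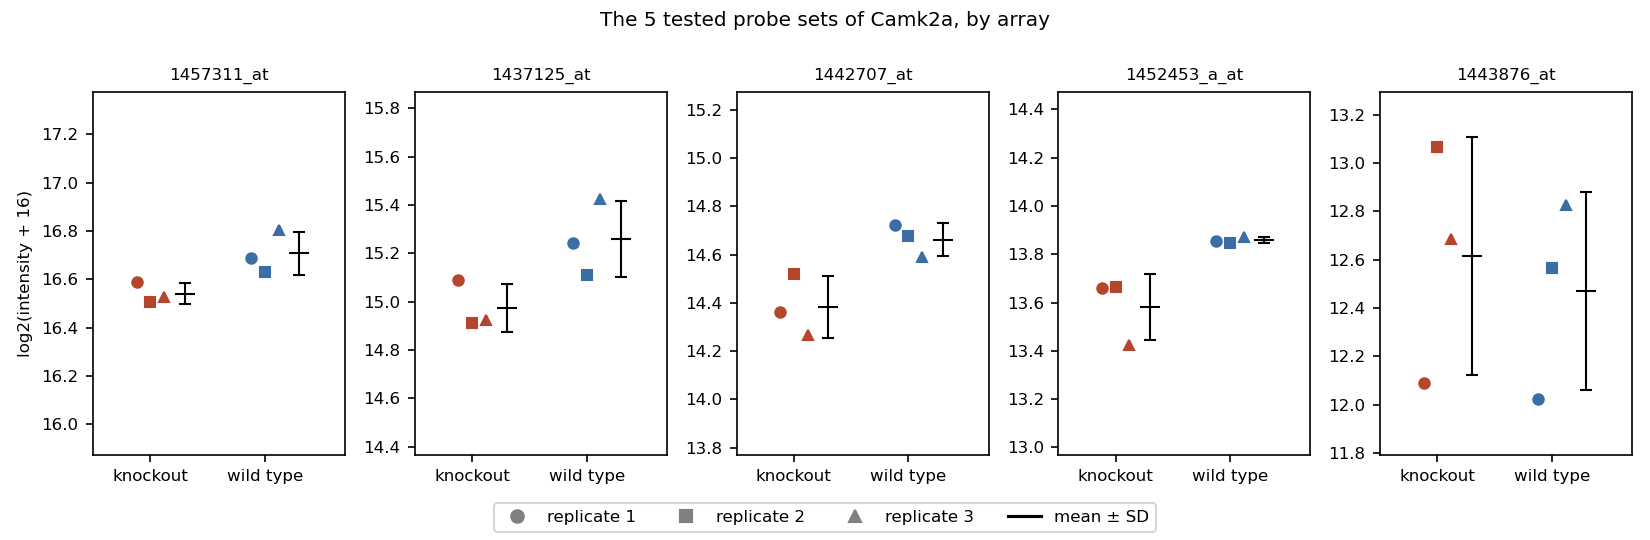
Log2(intensity + 16) of the 5 tested probe sets of Camk2a on each array (points, shaped by replicate number, with mean ± SD of 3 arrays as bars), knockout at the left and wild type at the right of each panel. The 4 brightest probe sets separate the groups, and 1443876_at does not.

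The Camk2a difference did not rest on replicate 1. Without that replicate in both groups, the log2 changes of the 4 brightest probe sets were -0.20, -0.35, -0.24 and -0.32, with limma adjusted p from 0.260 to 0.414. Over all the leave-outs of arrays, the log2 changes ran from -0.20 to -0.12 for 1457311_at and from -0.36 to -0.20 for 1437125_at. They ran from -0.35 to -0.22 for 1442707_at and from -0.32 to -0.20 for 1452453_a_at. The limma unadjusted p of 1457311_at was 0.0769 without knockout replicate 2 and 0.0707 without knockout replicate 3. All 4 stayed below 0 under each scaling tried. With the median of every array set equal, the log2 changes were -0.19, -0.31, -0.30 and -0.30, but their SEs were 0.16, the groups overlapped on all 4 and 0 of them had an unadjusted p under 0.05. With the 75th percentile set equal, the groups overlapped on 1437125_at. When variances were modelled without a trend on intensity, 2 of the 4 had an unadjusted p under 0.05.

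A measure of RNA quality separated the groups, and some markers of several cell types did so or had a limma unadjusted p under 0.05. No cell type marker passed the limma threshold after adjustment. For beta-actin, the signal at the 3' end over that at the 5' end, a measure of RNA integrity and labelling, was 1.18 to 1.21 in knockout and 1.24 to 1.30 in wild type, without overlap, while the same ratio for Gapdh was 0.821 to 0.829 in knockout and 0.809 to 0.880 in wild type. The summed intensity of the oligodendrocyte markers was also lower in knockout without overlap, as given above, though their mean log2 level overlapped. Of these 7 markers, 5 had a log2 change below 0 and 2 were without overlap, beside 10.5% of all genes. Alas2, the 1 red blood cell marker tested, had intensities of 974, 1099 and 780 in knockout and of 333, 663 and 533 in wild type (log2 change 0.92, limma unadjusted p = 0.0128, adjusted p = 0.988). Of the 8 choroid plexus markers, 3 were higher at an unadjusted p under 0.05, with overlap, beside 4.75% of all genes in either direction. Of 8 interneuron markers, 2 were lower without overlap, beside 10.5% of all genes in either direction. Sst, 1 of these 2, had a log2 change of -0.19 (limma unadjusted p = 0.0236, adjusted p = 0.988). The lists of 7 dentate granule neuron and 7 astrocyte markers also held 2 each without overlap. Those were Dsp and Lct, both higher in knockout, and Gfap, lower, and Slc1a3, higher. The part of any of these in the Camk2a difference was not tested. Markers of the pyramidal neurons in which Camk2a is abundant had median log2 changes of 0.01 for 4 CA1 genes and -0.01 for 7 CA3 and CA2 genes. Single genes of these 2 lists ran from -0.18 for Grik4 to 0.30 for Amigo2. For 7 dentate granule neuron markers the median was 0.02. In tissue RNA, fewer cells of a type and less RNA per cell cannot be told apart.

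Camk2b, the beta subunit, which binds actin and partners Camk2a in the same rings, was nearly level between the groups. Its only probe set, 1448676_at, had intensities of 25901, 30861 and 24084 in knockout and of 26418, 26726 and 28564 in wild type (log2 change -0.02, SE 0.09, limma adjusted p = 0.998). The knockout arrays enclosed the wild-type range. The 95% interval, -14.2% to 13.0%, leaves room for a difference of the size seen on the brightest probe set of Camk2a.

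Camk2g, the gamma subunit, carries calmodulin to the nucleus in excitatory neurons. Its brightest probe set, 1423942_a_at, had intensities of 17022, 15418 and 19064 in knockout and of 16180, 16142 and 18013 in wild type (log2 change 0.03, 95% interval -0.17 to 0.23). The other, 1423941_at, had a log2 change of 0.02 (95% interval -0.15 to 0.19). Both probe sets overlapped between the groups.

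Camk2d, the delta subunit best known from heart, was measured by 7 probe sets, 2 of which were left out as dim. Its brightest, 1427763_a_at, had intensities of 3215, 2519 and 2745 in knockout and of 2340, 3282 and 2318 in wild type (log2 change 0.11, SE 0.17). Wild type replicate 2 was the highest of the 6 arrays, above all knockout arrays. The dim probe set 1439168_at was the only one of the family with all knockout arrays above all wild-type arrays, at 564, 627 and 608 in knockout and 363, 386 and 454 in wild type (log2 change 0.57, SE 0.30, 95% interval -0.09 to 1.23, limma unadjusted p = 0.0855, adjusted p = 0.988). The groups stayed apart on 1439168_at under each scaling tried, and its change stayed above 0 in all 19 alternatives. With variances modelled without a trend on intensity, its SE was 0.12 (limma unadjusted p = 0.00296, adjusted p = 0.994). That was the 1 alternative of 19 with an unadjusted p under 0.05. The other 3 tested probe sets of Camk2d had log2 changes of 0.11 for 1422659_at, -0.05 for 1459457_at and 0.26 for 1460630_at, with overlap and SEs up to 0.54. The 2 left out, 1444031_at and 1456844_at, ran from 10.1 to 321 in knockout and from 13.1 to 193 in wild type.

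Camk2n1 and Camk2n2 encode small neuronal proteins that bind the active catalytic domain of CaM kinase II and block it. The brightest probe set of Camk2n1, 1456609_at, had intensities of 89675, 73081 and 74855 in knockout and of 77892, 77762 and 72900 in wild type (log2 change 0.05, SE 0.08, limma adjusted p = 0.991). Knockout replicate 1 was the highest array and knockout replicate 2 lay beside the lowest wild-type array. Without knockout replicate 1 the log2 change was -0.04. The second probe set of Camk2n1, 1440455_at, had a log2 change of 0.01 (SE 0.12). Camk2n2, probe set 1429204_at, had intensities of 10960, 9188 and 9531 in knockout and of 10714, 10333 and 9402 in wild type (log2 change -0.04, SE 0.09). On 1456609_at and 1429204_at, replicate 1 was the highest array of each group.

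**Figure D3:**
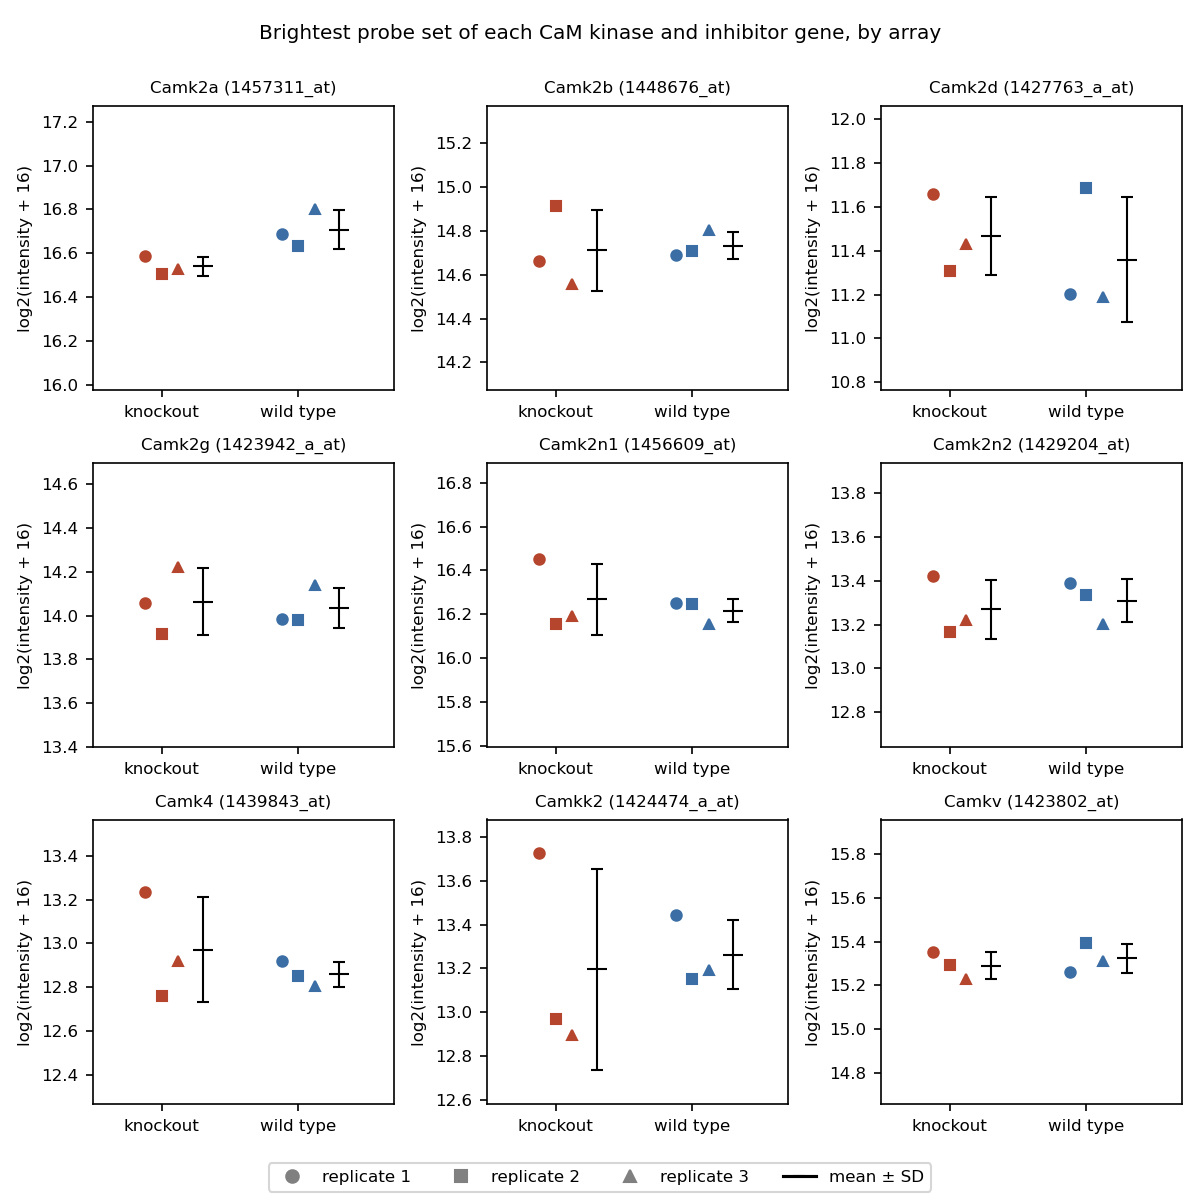
Log2(intensity + 16) of the brightest probe set of each of the 9 measured genes on each array (points, shaped by replicate number, with mean ± SD of 3 arrays as bars), knockout at the left and wild type at the right. Every panel spans the same height on the log2 axis. Only the Camk2a panel shows groups that do not overlap, and Camkk2 has the widest scatter among knockout arrays.

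Differences between 2 transcripts of the same array do not depend on a single factor that scales the whole array. Such differences were computed for 3 pairs, and with 3 arrays against 3 a two-sided exact permutation test cannot go below p = 0.1. Log2 Camk2a minus log2 Camk2n1 was 0.14, 0.35 and 0.34 in knockout and 0.44, 0.38 and 0.65 in wild type, a difference between groups of -0.22 (exact permutation p = 0.1, adjusted over the 3 contrasts 0.15). The groups did not overlap, and the gap between them was narrow. Without knockout replicate 1 the difference was -0.15 and without wild type replicate 3 it was -0.14. These values describe the relative signal of kinase and inhibitor transcripts, not their ratio in molecules.

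Camk2a minus Camk2b was 1.93, 1.59 and 1.97 in knockout and 2.00, 1.92 and 2.00 in wild type, a difference of -0.14 (exact permutation p = 0.3, adjusted over the 3 contrasts 0.3). The groups overlapped, and knockout replicate 2 alone lay well below the others, so an unequal change of the alpha and beta subunits was not shown on these probe sets. Without knockout replicate 2 the difference was -0.02. Camk2a was read here by 1457311_at (log2 change -0.17), whereas 1437125_at, 1442707_at and 1452453_a_at each had -0.28. Contrasts with those probe sets were not computed. Camk2n1 minus Camk2n2 was 3.03, 2.99 and 2.97 in knockout and 2.86, 2.91 and 2.95 in wild type, a difference of 0.09 (exact permutation p = 0.1, adjusted over the 3 contrasts 0.15). The groups did not overlap, by less than the spread within either. Without replicate 1 of both groups the difference was 0.05, and with quantile normalization, which is no single factor, it was 0.11.

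**Figure D4:**
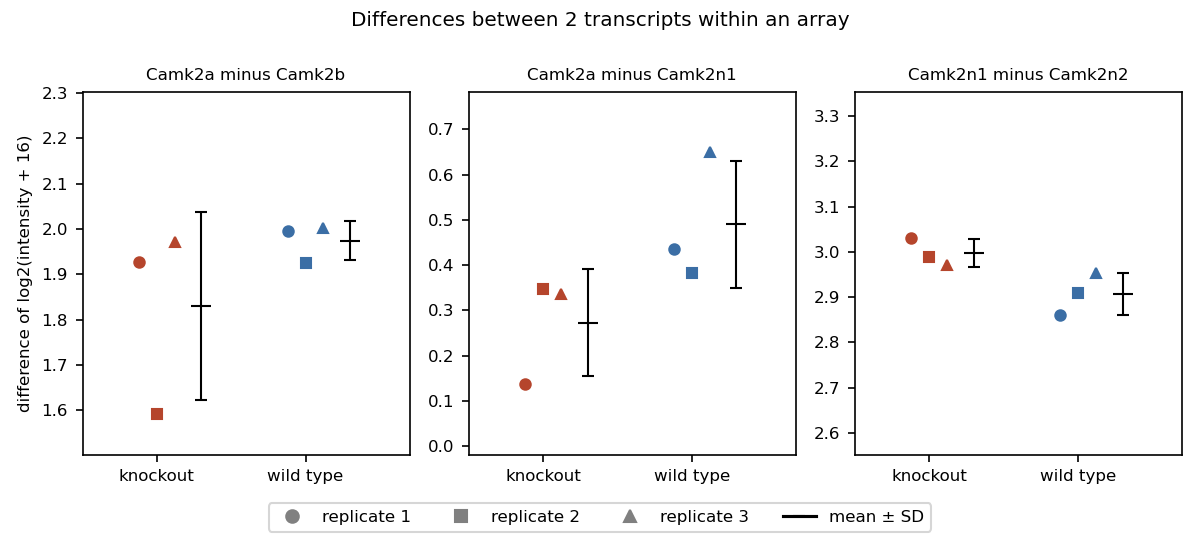
Difference of log2(intensity + 16) between the brightest probe sets of 2 genes within each array (points, shaped by replicate number, with mean ± SD of 3 arrays as bars), knockout at the left and wild type at the right. Camk2a minus Camk2n1 is lower in all knockout arrays, Camk2n1 minus Camk2n2 is higher in all of them, and Camk2a minus Camk2b overlaps.

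Camk4 encodes CaM kinase IV, a mainly nuclear kinase of neurons that phosphorylates the transcription factor CREB. Its brightest probe set, 1439843_at, had intensities of 9617, 6926 and 7740 in knockout and of 7723, 7381 and 7146 in wild type (log2 change 0.11, 95% interval -0.14 to 0.37). Knockout replicate 1 was the highest of the 6 arrays, and knockout replicate 2 the lowest. A dimmer probe set went the other way. Probe set 1421941_at had intensities of 1075, 527 and 515 in knockout and of 1069, 1387 and 952 in wild type (log2 change -0.74, SE 0.31, limma unadjusted p = 0.0362, adjusted p = 0.988). Knockout replicates 2 and 3 were well below all wild-type arrays and knockout replicate 1 was among them.

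Without knockout replicate 1, the log2 change of 1421941_at was -1.08 (limma adjusted p = 0.220), and without replicate 1 of both groups -1.12 (limma adjusted p = 0.260). It was -0.56 without knockout replicate 3, -0.58 without knockout replicate 2 and -0.59 without wild type replicate 2 (limma unadjusted p = 0.120, 0.115 and 0.139). It kept its sign in every alternative run, and its unadjusted p was under 0.05 in 14 of 19. The other 2 tested probe sets of Camk4 had log2 changes of 0.17 for 1441974_at and 0.07 for 1426167_a_at, both with SEs over 0.2, so the 4 probe sets disagreed in sign. The fifth, 1452572_at, was left out as dim, at 47.4 to 410 in knockout and 83.0 to 437 in wild type.

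Camkk2 encodes CaM kinase kinase 2, which activates CaM kinases I and IV and AMP-activated protein kinase. Its brightest probe set, 1424474_a_at, had intensities of 13520, 8003 and 7597 in knockout and of 11137, 9084 and 9345 in wild type (log2 change -0.07, SE 0.18, limma adjusted p = 0.998). Knockout replicate 1 lay above every other array, whereas knockout replicates 2 and 3 lay below every wild-type array. Without knockout replicate 1 the log2 change was -0.33 (limma unadjusted p = 0.00819, adjusted p = 0.292), and without replicate 1 of both groups it was -0.24 (limma unadjusted p = 0.0309, adjusted p = 0.430). The sign turned with other arrays left out, to 0.08 without knockout replicate 3, 0.05 without knockout replicate 2 and 0.02 without wild type replicate 1. For 1424475_at the log2 change was -0.20 over all arrays, -0.41 without knockout replicate 1 and -0.02 without knockout replicate 3. Probe set 1455401_at had 0.06 over all arrays, and the dim 1424476_at -0.54 with an SE of 0.45.

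Camkv encodes a vesicle protein of neurons with a kinase fold but no known kinase activity, which is needed to keep dendritic spines. Its probe set 1423802_at had intensities of 41760, 40093 and 38412 in knockout and of 39298, 43053 and 40670 in wild type (log2 change -0.03, SE 0.07, limma adjusted p = 0.997). The groups overlapped. With a 95% interval of -11.6% to 8.15%, this was the most tightly measured gene of the family beside Camk2a.

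Over the 25 tested probe sets, knockout replicate 1 was the highest of the knockout arrays for 15 and the lowest for 4. Wild type replicate 1 was the highest of its group for 11 and the lowest for 5. Camk2a's 1437125_at and 1457311_at had knockout replicate 1 closest to wild type, whereas 1442707_at and 1452453_a_at did not.

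**Figure D5:**
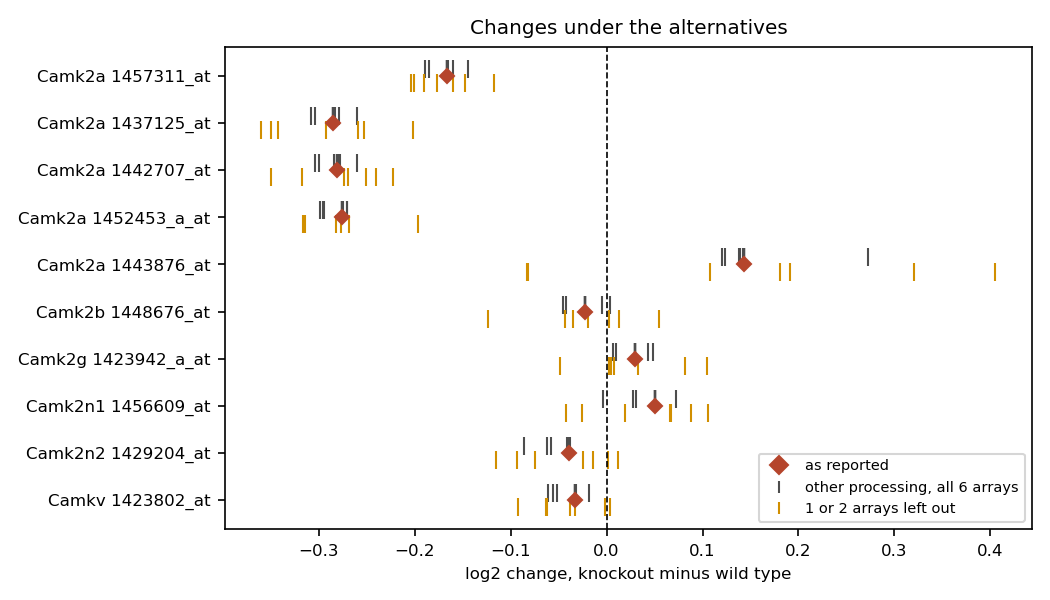
Log2 change (knockout minus wild type, horizontal axis) of the 5 tested probe sets of Camk2a and the brightest probe set of 5 other genes: as reported (diamonds), under other processing of all 6 arrays (grey marks) and with 1 or 2 arrays left out (orange marks). The 4 brightest Camk2a probe sets lie below 0 throughout, and the marks of Camk2b, Camk2g, Camk2n1, Camk2n2 and Camkv fall on both sides of 0.

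Other genes around the CaM kinases were read from 5 lists, each gene by its brightest probe set. Of their 49 tested entries, 0 passed the limma threshold, beside 0.016% of all 12493 genes, and 1 had an unadjusted p under 0.05, beside 4.75% of all genes. Of 4 calmodulin-binding buffers tested, 3 had a log2 change below 0 (median -0.05, beside 0.0003 for all genes). Nrgn, the postsynaptic protein neurogranin that holds calmodulin at low calcium, had a log2 change of -0.21 (SE 0.13) with overlap. Marcks, a calmodulin-binding substrate of protein kinase C, had 0.02.

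Among 12 other calmodulin-regulated or CaM kinase-like kinases, 6 had a change above 0 and 6 below (median -0.01). Camk1, CaM kinase I, had intensities of 4228, 3739 and 3840 in knockout and of 3269, 3346 and 3656 in wild type (log2 change 0.20, SE 0.11, limma adjusted p = 0.988). It was the 1 gene of this list whose groups did not overlap, beside 10.5% of all genes, and its other probe set had a log2 change of 0.08. Dclk2, a doublecortin-like kinase, had -0.18.

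Of 8 phosphatase genes that act on CaM kinases or anchor such phosphatases, 5 had a change above 0 and 3 below (median 0.02). Ppp1cc, the gamma catalytic subunit of protein phosphatase 1, had a log2 change of -0.09 (SE 0.06). Ppp1r9a, the actin-binding anchor neurabin, had 0.11 (SE 0.07) and was the 1 gene of the list without overlap, beside 10.5% of all genes. Its intensities were 23017, 22482 and 23084 in knockout and 21418, 20240 and 21731 in wild type. Its other 3 probe sets had log2 changes of 0.08, -0.22 and -0.43.

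Synaptic anchors and substrates of CaM kinase II showed 5 changes above 0 and 7 below among 12 tested genes (median -0.05). Syn1, the vesicle protein synapsin I, had a log2 change of -0.20 (SE 0.09, limma unadjusted p = 0.0622), with intensities of 38583, 30672 and 29866 in knockout and of 39620, 36502 and 36736 in wild type. Knockout replicate 1 lay among the wild-type arrays. Tiam1, a Rac exchange factor of spines, had 0.19 (SE 0.09), and its other 2 probe sets had -0.20 and 0.43. Iqsec1, singled out after its values were seen, was the 1 gene of the list without overlap (log2 change -0.13, SE 0.08), beside 10.5% of all genes.

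Downstream of CaM kinase kinase and CaM kinase IV, 7 of 13 genes had a change above 0 and 6 below (median 0.02), and 2 did not overlap between the groups, beside 10.5% of all genes. Akt1, a survival kinase that CaM kinase kinase can phosphorylate, had intensities of 6098, 5774 and 7108 in knockout and of 8506, 8178 and 8015 in wild type (log2 change -0.38, SE 0.10, limma unadjusted p = 0.00228, adjusted p = 0.988). Its other 2 tested probe sets had log2 changes of -0.08 and 0.08, so the difference was seen on 1 of 3. Crebbp, the coactivator that binds phosphorylated CREB, had a log2 change of 0.14 (SE 0.08), and its 2 other probe sets had 0.07 each. Akt1 and Crebbp were the genes without overlap.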

How the data were processed

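The authors deposited 1 table of linear probe set intensity, per the file headers 1 column per array. The program behind it is not named in the labels or headers. All values were above 0, and the mean without the top and bottom 2% was 2500 on every array, so the deposited values had been scaled. Gene names came from the platform annotation (34958 probe sets with 1 symbol), and chromosomes from a RefSeq table of GRCm38.p6.

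Values were taken as log2(intensity + 16). Leaving out 64 control probe sets and the dimmest 40% by mean over all arrays left 26999. The comparison used limma 3.58.1 in R 4.3.3 (group as the only term, intensity trend, two-sided), with Benjamini-Hochberg adjustment over all 26999 and a threshold of 0.05. Intervals are 95% intervals of that fit. Contrasts within arrays used exact permutation tests over 20 arrangements. The number of arrays limits the precision, and no detection calls were used.

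The members, the gene lists and the tests were chosen with earlier results of these data known. All members are named, by every probe set. Of each list, the gene with the smallest p in each direction is named. The alternatives were 3 other pseudocounts, 3 filters, 3 scalings, 2 variance models, weighted arrays, a replicate block, fewer arrays and averaging the probe sets of a gene. Same-numbered arrays are not paired by any label. The correlations of their deviations were 0.24, 0.05 and 0.0998 for replicates 1, 2 and 3. Those between differently numbered arrays of the 2 groups ran from -0.16 to 0.11.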

Additional observations from a re-analysis of the deposited data

How the results depend on the processing

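In all 20 alternatives 0 of the member probe sets passed the limma threshold, and at an unadjusted p under 0.05 the number of Camk2a probe sets lower in knockout ran from 0 to 4. The count of all probe sets past the threshold was 3 as reported, 1 without an intensity trend, 14 without replicate 1 of both groups, 3 to 5 leaving out 1 array (5 without knockout replicate 1), and 11 with the replicate block, though no label pairs the samples; the block moved no member across the threshold. The cause of these changes was not tested. Over 504 comparisons of a member probe set with an alternative, 46 had the other sign, 0 of them among the 4 brightest Camk2a probe sets, and the lowest limma adjusted p was 0.220. The 3 contrasts within arrays kept their sign in all 14 alternatives each. Other scalings moved the median log2 change of all tested probe sets to -0.002, -0.02 and -0.02. Precision limits the dim probe sets most: SEs ran from 0.07 to 0.54 over the members.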
